A study of Mus musculus with 54 samples.

Results

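The nuclear genes of oxidative phosphorylation subunits were examined in mouse microglia after a first or repeated injection of lipopolysaccharide (LPS, bacterial endotoxin) and in mice deficient in the DNA repair gene Ercc1. Members were set by a rule on symbols alone (Nduf, Sdh, Uqcr, Cox4 to Cox8 and Atp5 names). Earlier results of these data were known when the set was chosen. Of 97 matching gene identifiers, 8 named as pseudogenes were left out. This gave 89 members of 55536 genes, of which 38 belong to complex I, 4 to complex II, 8 to complex III, 21 to complex IV and 18 to complex V. Annotation lists 85 as protein-coding and 4 as processed pseudogenes (Ndufa11b, Ndufb4c, Ndufs6b and Cox6c2).

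Oxidative phosphorylation takes place at the inner mitochondrial membrane. Complex I accepts electrons from NADH and complex II from succinate, complex III passes them to cytochrome c, and complex IV hands them to oxygen. The proton gradient built by complexes I, III and IV drives ATP synthesis by complex V. Most subunits are encoded in the nucleus and imported, while a small set is encoded by mitochondrial DNA, so both genomes contribute to complexes I, III, IV and V. In myeloid cells, LPS is known to favor glycolysis over respiration, and microglia are the resident macrophages of the brain.

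In the recurrent LPS model, male C57BL/6J mice were injected intraperitoneally 2 times with 4 weeks between doses. The groups are LL (LPS, then LPS), PL (PBS, then LPS), LP (LPS, then PBS) and PP (PBS, then PBS). In the Ercc1 model, Ercc1Δ/ko mice (KO) on a mixed FVB/C57BL/6J background carried a truncated and a null Ercc1 allele and age fast. Their controls (WT) were littermates of the genotypes Ercc1wt/Δ, Ercc1wt/ko or Ercc1wt/wt, so a control may carry 1 mutant allele. Mice of 10–12 weeks received LPS or PBS, giving KO-LPS, KO-PBS, WT-LPS and WT-PBS. Every LPS dose was 1 mg/kg, and tissue was collected 3 h after the final dose. Single DAPI-, CD11b+, CD45+ and Ly6C- cells were sorted, and each group has 3 RNA libraries, each from 1 mouse. ATAC libraries pooled 2 mice and ChIP libraries 5 mice, with 1 library per group.

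Library totals were 4530395–15307836 expected counts in the recurrent LPS model and 18243891–34659337 in the Ercc1 model. Levels are in CPM after TMM scaling, and RPKM also divides by gene length. Ercc1 itself was at 4.67, 5.11 and 6.82 CPM in KO-LPS, against 9.82, 7.93 and 8.7 CPM in WT-LPS. It was at 6.36, 5.14 and 8.18 CPM in KO-PBS, against 9.58, 11 and 8.79 CPM in WT-PBS, so KO and WT libraries did not overlap within a treatment. All 10 microglia markers were detected in every group, but their sums moved with some groups. They were 23265–32030 CPM in PL against 41268–46568 CPM in PP (8 of 10 lower), 34121–36979 CPM in LL against 42422–47556 CPM in LP (6 of 10 lower), and 25790–34838 CPM in KO-LPS against 41558–49834 CPM in WT-LPS (4 of 10 lower). In KO-PBS they were 38195–41620 CPM, inside the WT-PBS range of 28921–61070 CPM. Markers of other cells moved as well. Neutrophil markers summed to 0.883, 183 and 305 CPM in the PL libraries against at most 51.4 CPM in PP. Border-associated macrophage markers summed to 49.7–63.2 CPM in KO-LPS against 19.9–24.3 CPM in WT-LPS, and to 17.1–32.8 CPM in KO-PBS against 8.04–15.5 CPM in WT-PBS. Monocyte markers summed to 54.5–92.9 CPM in PL against 22.1–29 CPM in PP, and to 29.3–37.7 CPM in KO-LPS against 24.5–27.4 CPM in WT-LPS. Neuronal markers summed to 13.2–20.5 CPM in KO-LPS against 28.4–30.7 CPM in WT-LPS, and to 4.18–5.13 CPM in KO-PBS against 8.8–15.2 CPM in WT-PBS. Astrocyte markers summed to 420–532 CPM in WT-LPS against 200–241 CPM in WT-PBS, and to 413–491 CPM in KO-LPS against 174–183 CPM in KO-PBS. Endothelial markers summed to 46.4–70.4 CPM in KO-LPS against 102–106 CPM in WT-LPS, and to 107–109 CPM in LL against 53–56.6 CPM in LP. Astrocyte markers summed to 322–387 CPM in LL against 212–274 CPM in LP. For monocyte markers the sums were 41.9–44.9 CPM in LL against 23.4–27.2 CPM in LP. The other non-microglial sums of LL and LP overlapped. Compared with PL, LL had higher microglia marker sums (5 of 10 higher), and 4 of 5 tested neutrophil markers were lower. Border-associated macrophage sums were 38.4–43.8 CPM in LL against 14.7–28.7 CPM in PL, and neuronal sums 19.1–48.8 CPM against 5.3–18.1 CPM. Astrocyte sums were 322–387 CPM in LL against 253–279 CPM in PL, and monocyte sums 41.9–44.9 CPM against 54.5–92.9 CPM. Oligodendrocyte sums were 150–210 CPM in PL against 230–317 CPM in PP. Endothelial sums were 102–106 CPM in WT-LPS against 51.2–62.7 CPM in WT-PBS. Between KO-LPS and KO-PBS, neuronal sums were 13.2–20.5 CPM against 4.18–5.13 CPM. Border-associated macrophage sums there were 49.7–63.2 CPM against 17.1–32.8 CPM. Further marker sums differed without overlap and are not listed. The part of these markers in the results was not tested. In bulk RNA, fewer cells of a type and less RNA per cell cannot be told apart, and p-values measure the spread between these mice.

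The promoters were inspected first, for strings that members may share outside their symbols. Transcription start regions of 66 of the 84 distinct protein-coding symbols were found in the RefSeq promoter table (GRCm38.p6, 250 bases before to 50 after the start). That is 78.6%, under the 80% needed, so shares over the members are void as a check and are given as counts only. Consensus letters were searched on both strands. The NRF1 string GCGCATGC was present in 10 of the 66 promoters and in 2.8% of 27025 promoters of the whole table. The ETS core CCGGAAG, which GABP binds, was in 15 and in 9.12% of the table. The YY1 string AAGATGGCG was in 6 and in 1.49%, the estrogen-related receptor (ERR) string TCAAGGTCA in 2 and in 0.407%, and the SP/KLF string GGGCGG in 26 and in 35.9%. Among the promoters of 10413 protein-coding genes tested, the shares were 5.44% for NRF1, 17.9% for ETS, 3.14% for YY1, 0.25% for ERR and 63.2% for SP/KLF. These shares differ from those of the whole table, and the member counts are not compared with either. A match is a description of letters and not a binding site.

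Windows of 100 bases upstream of the start are shown for members of complexes I, II, III and V that hold such a string, 5′ to 3′ on the gene's strand, because NRF1, GABP and ERR are textbook regulators of respiratory genes. Capitals mark the matched string or its reverse complement, and in Ndufa11 NRF1 matches on both strands overlap. The coordinates are chr17:56717662-56717761 (plus strand) for Ndufa11, chr9:50603850-50603949 (minus) for Sdhd, chr4:116075071-116075170 (minus) for Uqcrh and chr2:73911327-73911426 (minus) for Atp5g3.
Ndufa11 (NRF1): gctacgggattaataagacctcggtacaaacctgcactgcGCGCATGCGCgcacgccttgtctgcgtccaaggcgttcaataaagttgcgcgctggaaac
Sdhd (ETS): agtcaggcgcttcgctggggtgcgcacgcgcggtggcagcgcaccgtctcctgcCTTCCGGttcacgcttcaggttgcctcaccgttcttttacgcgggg
Uqcrh (ETS): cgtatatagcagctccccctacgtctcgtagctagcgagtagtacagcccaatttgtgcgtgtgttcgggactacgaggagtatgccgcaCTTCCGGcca
Atp5g3 (ERR): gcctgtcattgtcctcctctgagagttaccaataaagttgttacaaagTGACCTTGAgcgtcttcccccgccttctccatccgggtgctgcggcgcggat

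Chromatin at the members' starts was open and marked as active in nearly all groups. An ATAC peak lay within 1000 bp of the start of 74 of 78 tested protein-coding members (94.9%) in each of LL, PL, LP and PP, against 85–86.7% of all protein-coding genes tested. In the Ercc1 model the counts were 76 of 79 in KO-LPS and 76 in WT-LPS (96.2% each, against 82% and 83.3% of all), and 74 in KO-PBS and 73 in WT-PBS (93.7% and 92.4%, against 80.1% and 75%). The ATAC lists of WT-LPS and of LP hold the same number of peaks, 65323 each. Whether 1 list stands under both labels was not tested, so the WT-LPS values are uncertain. H3K4me3, the mark of active promoters, was at 96.2–97.4% of members in the recurrent LPS model, against 90.9–91.1% of all protein-coding genes tested, and at 97.5% in KO-PBS and WT-PBS, against 87.7% and 87.9%. H3K27ac was at 97.4% of members in all 4 recurrent LPS groups, against 87.1–87.4% of all, and at 94.9% in KO-PBS and 96.2% in WT-PBS, against 76.8% and 77%. The repressive mark H3K27me3 was at 15 of 79 members (19%) in KO-PBS and in WT-PBS, against 24.5% and 26.1% of all. The members differed, with Ndufb11 in KO-PBS only and Cox7a2l in WT-PBS only. Many of these peaks are broad domains that reach far beyond the start, with widths in WT-PBS from 1600 bp at Atp5d to 6067600 bp at Cox7b. With 1 pooled library per group, none of these differences was tested.

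Of the 21 complex IV members, the widely expressed isoforms made up the level. Mean RPKM was 67.6 in the recurrent LPS model and 44.4 in the Ercc1 model for Cox4i1, against 0.139 and 0.0408 for the lung and hypoxia isoform Cox4i2. Cox6b1 was at 52.7 and 26.8 RPKM, against 0.616 and 0.408 RPKM for the testis isoform Cox6b2. Cox8a was at 65.1 and 69.8 RPKM, against 0.14 and 0.0148 RPKM for the muscle isoform Cox8b. For subunit 7A, Cox7a2 was at 19.2 and 8.62 RPKM and Cox7a2l, which helps to assemble supercomplexes, at 49.8 and 38.7 RPKM, while the muscle isoform Cox7a1 was at 0.691 and 0.151 RPKM. The exception was subunit 6A, where the heart and muscle isoform Cox6a2 was tested in both models, at 2.19 and 6.75 RPKM beside 65.5 and 59 RPKM for Cox6a1. Cox6a2 lies inside the integrin gene Itgad on the other strand, and its reads cannot be told apart from those of Itgad.

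Ndufa4, a complex IV subunit despite its name, was at 20.5 and 10.0 RPKM, while its paralog Ndufa4l2 stayed at or under 0.191 CPM in every library. A further paralog, AA467197, was at 0.671, 0.731 and 0.916 CPM in KO-LPS and at 0.706 CPM or less in every library of the other groups. These levels are near the floor. It belongs to a list of 6 subunits and carriers outside the symbol rule. The largest log2 change in that list was 5.60 in WT-LPS versus WT-PBS and 7.47 in KO-LPS versus KO-PBS. The c-ring of complex V is made from 3 genes for the same mature protein, with Atp5g3 at 27.7 and 13.2 RPKM, Atp5g2 at 14.7 and 20.6 RPKM and Atp5g1 at 3.68 and 3.73 RPKM. The highest member in both models was Atp5a1, the catalytic-core alpha subunit, at 97.9 and 87.9 RPKM. After the filter on low counts, 80 members were tested in the recurrent LPS model and 81 in the Ercc1 model. Cox7b2, Cox8b, Cox8c, Cox4i2, Cox7a1, Ndufa4l2, Ndufs6b and Ndufa11b were tested in neither, and Cox6b2 in the Ercc1 model only.

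**Figure D1:**
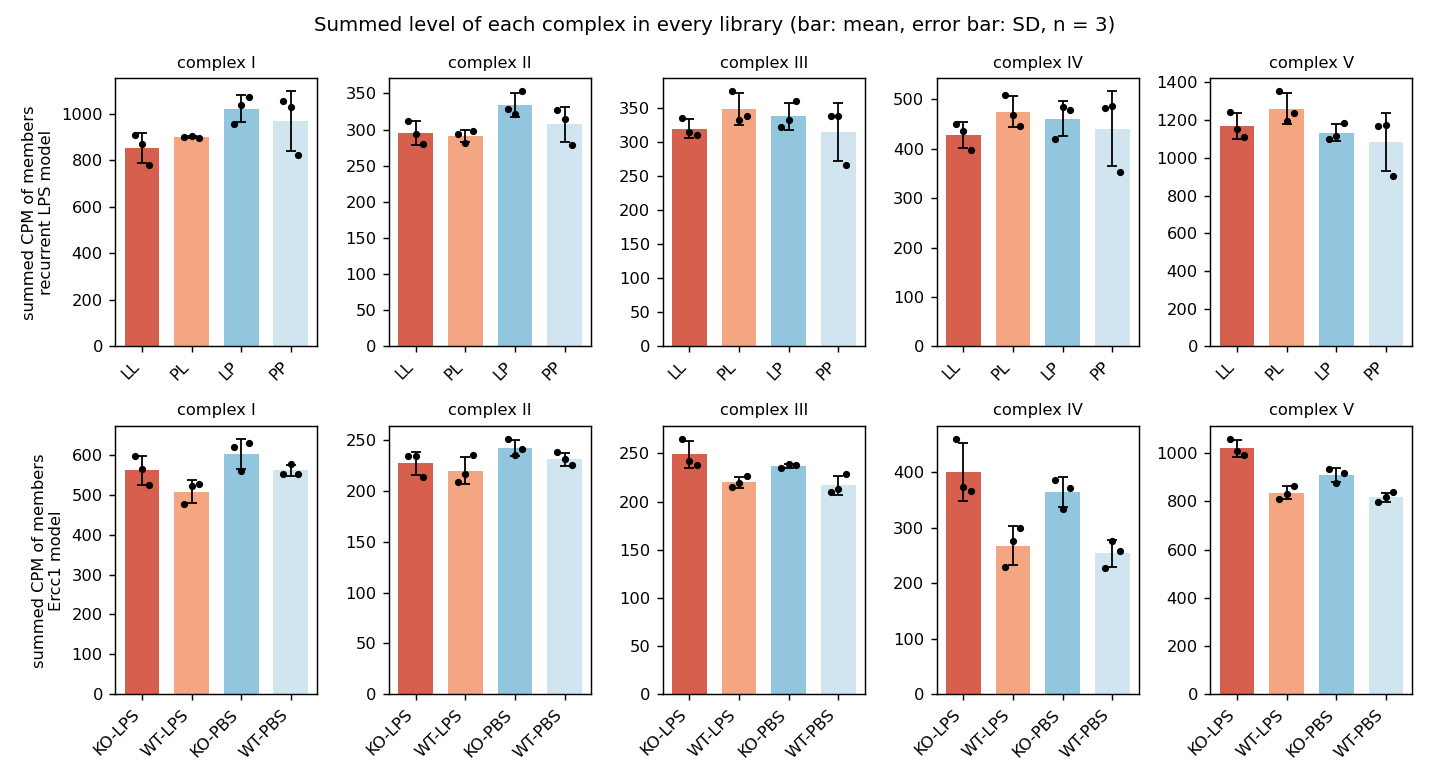
Summed CPM of the members of each complex (y axis, CPM) in every library (points), with the mean (bar) and SD (error bar) of 3 mice per group, for the recurrent LPS model (top) and the Ercc1 model (bottom). Complex IV stands at 460, 373 and 367 CPM in KO-LPS against 230, 276 and 299 CPM in WT-LPS, while the lowest point of PP in each complex is replicate 3.

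Summed CPM separated some groups and not others. Complex I was at 907, 871 and 780 CPM in LL against 956, 1037 and 1070 CPM in LP, without overlap, and complexes II (LL versus LP) and V (PL versus PP) did not overlap either. Between genotypes, complexes III, IV and V did not overlap within a treatment, while complexes I and II did. All members summed to 3250, 3068 and 2875 CPM in LL, 3431, 3177 and 3214 CPM in PL, 3129, 3290 and 3445 CPM in LP and 3372, 3345 and 2625 CPM in PP. The third PP library was thus low, and counts and medians in comparisons with PP are also given without it. In the Ercc1 model the sums were 2457 ± 143 CPM in KO-LPS against 2052 ± 106 CPM in WT-LPS, and 2354 ± 98.6 CPM in KO-PBS against 2081 ± 47.2 CPM in WT-PBS (SD, n = 3 each), with no overlap between genotypes within a treatment.

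To examine the acute response, PL was compared with PP. Most subunit genes did not pass the test after LPS. In complex V, 6 of 18 members were higher, in complex I, 1 of 36 was lower, and in complex II, 1 of 4. No member of complex III (8 tested, median log2 change 0.22) or complex IV (14 tested, 0.10) passed the test, and the medians were -0.10 in complex I and 0.13 in complex V. In all, 6 of 80 members were higher and 2 lower, while 26.0% of the 16096 genes tested were higher and 26.6% lower. The median log2 change was -0.03 for the members (0.01 in DESeq2) and -0.04 for all genes. Calls were made with edgeR's quasi-likelihood test at a threshold of 0.05 on the Benjamini-Hochberg adjusted p over all genes, with no minimum fold.

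Ndufv3 (chr17:31520115-31531331, plus strand), an accessory subunit of the NADH-oxidizing module of complex I, was at 18.1, 17.3 and 20.2 CPM in PL, against 34.7, 32.6 and 30.1 CPM in PP. All PL libraries were below all PP libraries, and the log2 change was -0.82 ± 0.12 (SE, edgeR adjusted p = 5.13e-05). Its start lies 135 bp from that of Wdr4, a tRNA methyltransferase subunit transcribed the other way, which was at 59.9, 73 and 61.4 CPM in PL against 30.9, 33.8 and 34.1 CPM in PP (log2 change 0.97). These neighboring genes thus moved in opposite directions.

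Sdhb (chr4:140961203-140979193), the iron-sulfur subunit of complex II, was at 55.3, 48.0 and 53.7 CPM in PL, against 74.7, 69.2 and 57.9 CPM in PP. The groups did not overlap, and the log2 change was -0.37 ± 0.11 (edgeR adjusted p = 0.0104). The catalytic subunit Sdha was at 138, 137 and 141 CPM in PL against 145, 145 and 139 CPM in PP, and did not pass the test. The membrane anchors did not either, with Sdhc at 48.4, 45.3 and 56.3 CPM in PL against 54.6, 43.7 and 33.3 CPM in PP, and Sdhd at 52.5, 51.1 and 47.4 CPM in PL against 52.7, 56.3 and 48.6 CPM in PP. Sdhb was thus the only called gene among the 4 of complex II.

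In complex V, Atp5b (chr10:128083273-128090391), the catalytic beta subunit, was at 428, 351 and 372 CPM in PL, against 316, 315 and 237 CPM in PP (log2 change 0.41 ± 0.12, edgeR adjusted p = 0.0105). Atp5l, the g subunit of the membrane part, was at 17.9, 22.7 and 17.8 CPM in PL, against 12.0, 12.1 and 17.5 CPM in PP (0.51 ± 0.17, edgeR adjusted p = 0.0219). Atp5g1, a c-ring gene, was at 20.4, 21.8 and 22.9 CPM in PL, against 18.6, 15.9 and 15.6 CPM in PP (0.37 ± 0.13, edgeR adjusted p = 0.0247). For each, every PL library was above every PP library. Atp5g3 (0.31) and the stalk subunit Atp5h (0.32) were also higher, as was 1 of the 2 identifiers named Atp5o (ENSMUSG00000116933), at 15.1, 12.1 and 13.2 CPM in PL against 8.88, 9.81 and 6.48 CPM in PP. That identifier spans chr16:91684398-91926982 and overlaps Donson, Cryzl1, Itsn1 and the other Atp5o gene, so its value is uncertain.

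Without PP replicate 3, 4 members were higher (Atp5b, Atp5l, Atp5o ENSMUSG00000116933 and Cox7c) and 8 lower, of which 7 belong to complex I (Ndufa2, Ndufa9, Ndufa13, Ndufb10, Ndufc2, Ndufv1 and Ndufv3). The complex I median was then -0.21 and that of complex V -0.01, beside 24.8% of all genes higher and 24.1% lower. In that fit 3 of 18 members of complex V were higher and 7 of 36 of complex I lower, both under the shares of all genes. Leaving out the second or the third PL library, which hold neutrophil markers, gave 6 and 7 members past the test. Each of these fits kept the other of these libraries, so the part of neutrophil RNA was not tested.

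**Figure D2:**
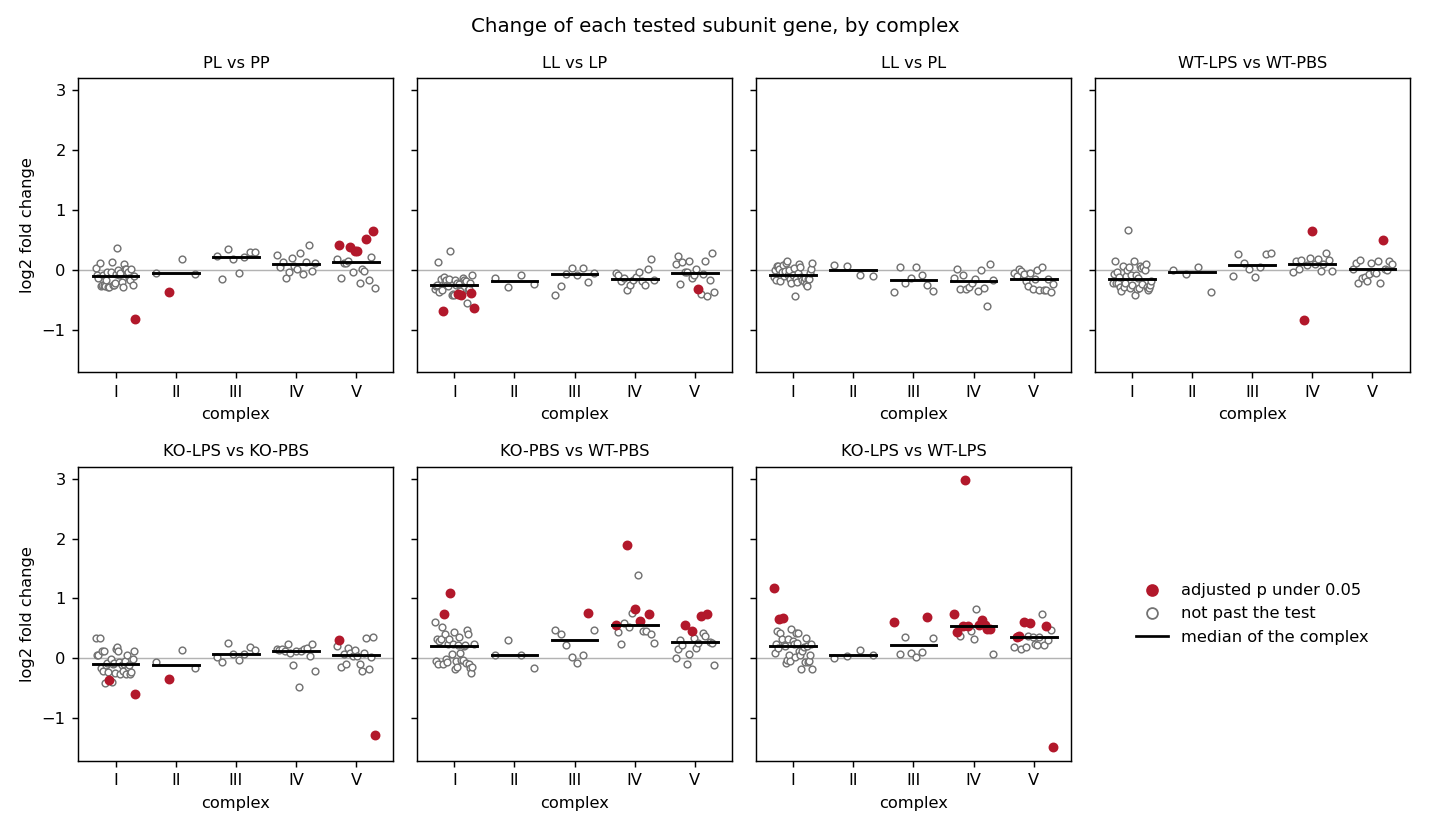
Log2 fold change (y axis) of each tested subunit gene by complex (x axis) in 7 comparisons, with edgeR calls in red, other genes as open circles and the median of each complex as a line. The complex IV medians are 0.54 in KO-LPS versus WT-LPS and 0.56 in KO-PBS versus WT-PBS, against -0.19 in LL versus PL and 0.10 in PL versus PP.

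To examine what remained 4 weeks after a first LPS dose, LP was compared with PP. With edgeR, 0 of 80 members passed the test and 0 reached an unadjusted p under 0.05, and DESeq2 and limma with surrogate variables also called 0. Of all genes, 0.0% were higher and 0.0% lower, and 817 reached an unadjusted p under 0.05. The median log2 change of the members was 0.07, and -0.04 without PP replicate 3. Ndufv3 was at 27.4, 32.1 and 34.2 CPM in LP against 34.7, 32.6 and 30.1 CPM in PP, and these ranges overlap.

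A second LPS dose was examined by comparing LL with LP. Subunit genes were mostly on the lower side: 67 of 80 log2 changes were negative, with a median of -0.18 against -0.06 over all genes. With edgeR, 0 members were higher and 6 lower, 5 of them in complex I, beside 15.4% of all genes higher and 15.9% lower. The lower calls were 7.5% of the tested members and 13.9% of those of complex I, both under the share of all genes. The complex medians were -0.26 in I, -0.19 in II, -0.07 in III, -0.15 in IV and -0.06 in V. Ndufv3 was at 20.1, 21.6 and 18.1 CPM in LL, against 27.4, 32.1 and 34.2 CPM in LP, without overlap (-0.64 ± 0.12, edgeR adjusted p = 0.000986). Ndufa5, an accessory subunit of the hydrophilic arm, was at 7.06, 6.16 and 6.32 CPM in LL, against 12.2, 8.78 and 11.4 CPM in LP (-0.69 ± 0.20, edgeR adjusted p = 0.0192).

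Ndufv1, the core subunit that binds NADH and flavin, was at 49.4, 44.4 and 41.3 CPM in LL, against 58.4, 63.4 and 54.2 CPM in LP (-0.38 ± 0.11, edgeR adjusted p = 0.0154). It was the only 1 of the 7 nuclear core subunits of complex I to pass the edgeR test in any of the 10 contrasts with all libraries. Ndufc2 (-0.42), Ndufb8 (-0.40) and the peripheral-stalk gene Atp5j (-0.33) were also lower. Ndufb8 overlaps Gm20538 on its own strand, and Atp5j overlaps Gabpa on the other. Wdr4 again moved the other way from Ndufv3 (log2 change 0.71). The count is sensitive to the method, since limma with surrogate variables called 18 lower and 1 higher. With edgeR, 1 member was called without LL replicate 3, 2 without LL replicate 1, 3 without LP replicate 3 and 9 without LP replicate 1.

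LL and PL, both taken 3 h after LPS, were compared for the effect of an earlier dose. No single subunit gene separated them in the edgeR test with all libraries and the filter on low counts. With edgeR, 0 of 80 members passed, 5 reached an unadjusted p under 0.05 and all 5 were lower in LL, while 3.62% of all genes were higher and 4.73% lower. DESeq2 called 0 and limma 1 (Atp5g3, log2 change -0.36). The median was -0.12 for the members against -0.01 for all genes, with -0.08 in complex I, -0.18 in III, -0.19 in IV and -0.15 in V. Cox7c, a small complex IV subunit, came closest with a log2 change of -0.60 ± 0.19 (edgeR adjusted p = 0.067). It passed the edgeR test with no filter on low counts (-0.60, adjusted p = 0.0317) and without PL replicate 1 (-0.77, adjusted p = 0.0252).

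The response to a second dose (LL versus LP) was also set against that to a first (PL versus PP). With edgeR, 0 members passed this test of the second response against the first, 4 reached an unadjusted p under 0.05 and the lowest adjusted p was 0.239, beside 0.335% of all genes higher and 1.46% lower. DESeq2 called 0 and limma 2. All 4 had a lower second response, namely Uqcr10 (-0.65), Uqcrh (-0.50), Cox6b1 (-0.44) and Atp5g3 (-0.39). The median was -0.17 for the members and -0.02 for all genes, and without PP replicate 3 it was -0.08 for the members, with 0 past the test. These recurrent LPS comparisons share control libraries, so they are not independent of each other.

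In the Ercc1 model, LPS was examined first in control littermates. WT-LPS and WT-PBS differed in few subunit genes, 2 being higher and 1 lower of 81, while 10.7% of all 17460 genes were higher and 9.15% lower. The medians were -0.01 for the members and 0.02 for all genes. Cox6c, a small complex IV subunit, was at 10.2, 10.8 and 11.8 CPM in WT-LPS, against 6.13, 8.67 and 6.25 CPM in WT-PBS (0.64 ± 0.17, edgeR adjusted p = 0.0189). Atp5l was at 16.3, 16.7 and 14.8 CPM in WT-LPS, against 9.65, 10.7 and 13.5 CPM in WT-PBS (0.50 ± 0.15, edgeR adjusted p = 0.0334). Cox6a2 was at 1.05, 1.12 and 1.02 CPM in WT-LPS, against 1.41, 2.36 and 1.93 CPM in WT-PBS (-0.83 ± 0.27, edgeR adjusted p = 0.0457). None of these groups overlapped. The calls rested on single libraries, with 0 members past the edgeR test without the second WT-LPS library in the order given here and 1 without the first or the third.

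In KO mice, LPS gave 1 higher and 4 lower members of 81, beside 17.7% of all genes higher and 19.3% lower. With RLE scaling in place of TMM the split was 2 higher and 2 lower. Atp5b was at 329, 312 and 306 CPM in KO-LPS, against 253, 250 and 260 CPM in KO-PBS (0.31 ± 0.10, edgeR adjusted p = 0.0232). Ndufv3 was at 12.0, 11.6 and 12.2 CPM in KO-LPS, against 14.7, 18.5 and 21 CPM in KO-PBS (-0.60 ± 0.20, edgeR adjusted p = 0.0304). In WT-LPS versus WT-PBS neither passed the test, with overlapping groups and log2 changes of 0.11 for Atp5b and -0.18 for Ndufv3.

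Sdhb was at 37.8, 35.7 and 36.8 CPM in KO-LPS, against 47.6, 43.4 and 48.7 CPM in KO-PBS (-0.34 ± 0.12, edgeR adjusted p = 0.0417). Ndufb10 was at 15.8, 14.8 and 12.6 CPM in KO-LPS, against 19.1, 17.0 and 19.5 CPM in KO-PBS (-0.37, edgeR adjusted p = 0.0354). The largest change was in Atp5s (chr12:69724950-69744660), known as coupling factor B and not a standard structural subunit, at 1.73, 1.6 and 1.87 CPM in KO-LPS against 5.05, 3.58 and 3.93 CPM in KO-PBS (-1.27 ± 0.28, edgeR adjusted p = 0.00356). Leaving out any 1 of the 6 libraries gave 1–2 members past the test.

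**Figure D3:**
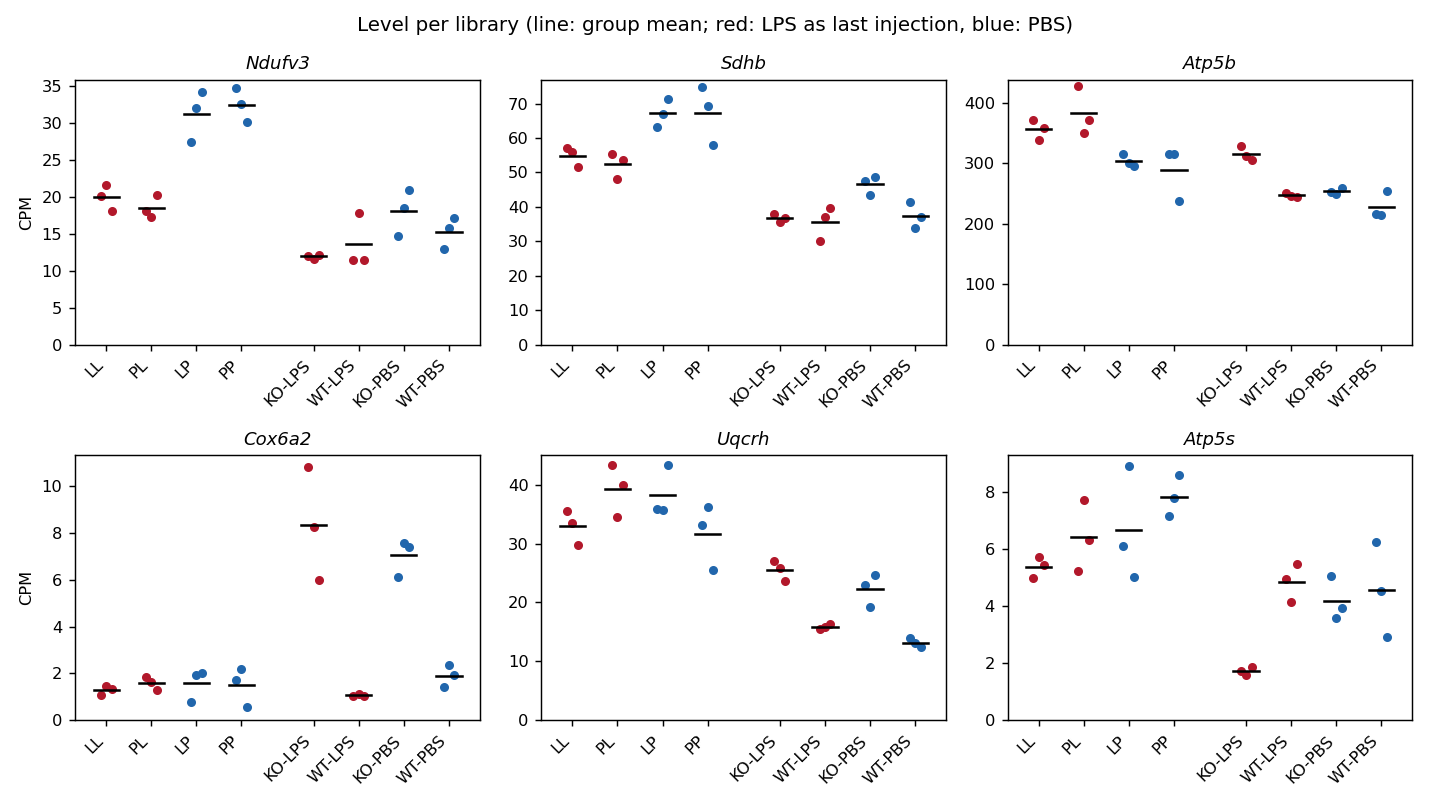
CPM (y axis) of 6 members in every library of both models (points; red where the last injection was LPS, blue where it was PBS), with the group mean as a line. Ndufv3 is at 17.3–20.2 CPM in PL against 30.1–34.7 CPM in PP, and Cox6a2 at 5.98–10.8 CPM in KO-LPS against 1.02–1.12 CPM in WT-LPS.

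The genotype was first compared without LPS. Of 81 subunit genes, 62 had a positive log2 change in KO-PBS relative to WT-PBS. With edgeR, 12 members were higher and 0 lower, while 28 reached an unadjusted p under 0.05 and all 28 were higher. Over all genes, 8.19% were higher and 3.37% lower (1670 and 1352 genes with DESeq2, which called 14 members, all higher). By complex, 2 of 36 members rose in I (median 0.21), 0 of 4 in II (0.06), 1 of 8 in III (0.31), 5 of 15 in IV (0.56) and 4 of 18 in V (0.27), against a median of -0.02 for all genes. Complex IV summed to 386, 334 and 371 CPM in KO-PBS, against 228, 276 and 258 CPM in WT-PBS. All KO libraries were above all WT libraries, also for complex V (909 ± 30.7 CPM in KO-PBS against 817 ± 19.3 CPM in WT-PBS, SD, n = 3 each).

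Among the small subunits of complex IV, Cox6c was at 13, 10.5 and 13.8 CPM in KO-PBS, against 6.13, 8.67 and 6.25 CPM in WT-PBS (0.83 ± 0.17, edgeR adjusted p = 0.00766). Cox7c was at 11.6, 12.2 and 11.3 CPM in KO-PBS, against 6.73, 6.52 and 7.75 CPM in WT-PBS (0.74 ± 0.14, edgeR adjusted p = 0.00512). Cox7a2 (0.63) and Cox4i1, the largest nuclear-encoded subunit of the complex (88.7, 66.6 and 83.3 CPM in KO-PBS against 45.4, 55.6 and 61.3 CPM in WT-PBS, 0.56), were higher as well. Cox6a1 was at 46.5, 48.9 and 46.9 CPM in KO-PBS, against 31.9, 34.5 and 28 CPM in WT-PBS, without overlap but with an edgeR adjusted p of 0.0558. Cox6c lies within the span of Vps13b, and Cox4i1 overlaps Gm20388 on its own strand and Emc8 on the other.

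Uqcrh (chr4:116066965-116075071), the hinge protein of complex III that assists electron transfer between cytochromes c1 and c, was at 22.9, 19.3 and 24.6 CPM in KO-PBS, against 14, 13.2 and 12.4 CPM in WT-PBS (0.75 ± 0.12, edgeR adjusted p = 0.00186). In complex I, Ndufa6 was at 27.9, 26.1 and 26.0 CPM in KO-PBS, against 19.5, 12.4 and 16.1 CPM in WT-PBS (0.73 ± 0.18, edgeR adjusted p = 0.0215). Ndufb2 was at 6.36, 6.8 and 5.98 CPM in KO-PBS, against 2.47, 4.23 and 2.28 CPM in WT-PBS (1.09 ± 0.31, edgeR adjusted p = 0.0394), and overlaps Braf. Neither is one of the core subunits, whose median log2 change was -0.09.

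In complex V the 4 higher members were small subunits. Atp5mpl was at 12.3, 9.7 and 9.42 CPM in KO-PBS, against 5.42, 6.87 and 6.54 CPM in WT-PBS (0.74 ± 0.17, edgeR adjusted p = 0.0169). Atp5j2, the f subunit, was at 17.7, 14.2 and 17.8 CPM in KO-PBS, against 12.7, 8.03 and 9.54 CPM in WT-PBS (0.72 ± 0.21, edgeR adjusted p = 0.0427). The epsilon subunit Atp5e was at 15.4, 12.9 and 13.8 CPM in KO-PBS, against 9.44, 10.7 and 8.47 CPM in WT-PBS (0.56 ± 0.15, edgeR adjusted p = 0.0287). The c-ring gene Atp5g2 was higher by 0.46, so no catalytic subunit of the head passed the test here. In the order of libraries given here, 4 members were called without the first KO-PBS library, 5 without the third and 7 without the first WT-PBS library.

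After LPS, KO-LPS had 20 members higher and 1 lower than WT-LPS, with 72 of 81 log2 changes positive, beside 13.4% of all genes higher and 13.6% lower. The medians were 0.28 for the members and -0.04 for all genes. In complex IV, 10 of 15 members rose (median 0.54), followed by 5 of 18 in V (0.36), 2 of 8 in III (0.22), 3 of 36 in I (0.21) and 0 of 4 in II (0.05). Complex IV summed to 400 ± 52.1 CPM in KO-LPS against 268 ± 35.3 CPM in WT-LPS, and complex V to 1019 ± 34.9 CPM against 835 ± 26.3 CPM (SD, n = 3 each).

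Cox4i1, which overlaps Gm20388 and Emc8, was at 102, 82.6 and 82.1 CPM in KO-LPS, against 45.6, 56.0 and 57.0 CPM in WT-LPS (0.75 ± 0.15, edgeR adjusted p = 0.00316). Cox7a2l was at 84.5, 64.6 and 65.7 CPM in KO-LPS, against 40.1, 45.2 and 52.3 CPM in WT-LPS (0.64 ± 0.15, edgeR adjusted p = 0.00656). The other complex IV members past the test, Cox6a2 aside, were Cox5a, Cox6a1, Cox6b1, Cox7a2, Cox7b, Cox7c and Cox8a, with log2 changes of 0.44–0.56. In complex III, Uqcrh was at 27.1, 25.9 and 23.7 CPM in KO-LPS, against 15.5, 15.8 and 16.3 CPM in WT-LPS (0.69 ± 0.12, edgeR adjusted p = 0.00132), and Uqcr10, another small subunit, was at 13.6, 9.77 and 10.0 CPM in KO-LPS against 7.23, 5.72 and 9.06 CPM in WT-LPS (0.60). KO-LPS libraries were above WT-LPS libraries for all of these.

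In complex I, the accessory subunit Ndufa1, needed for complex I assembly, was at 8.12, 4.93 and 7.84 CPM in KO-LPS, against 2.02, 3.44 and 3.82 CPM in WT-LPS (1.17 ± 0.31, edgeR adjusted p = 0.0135). Ndufa6 was at 21.8, 20.6 and 17.6 CPM in KO-LPS, against 12.5, 10.1 and 15.2 CPM in WT-LPS (0.67 ± 0.18, edgeR adjusted p = 0.0174), and Ndufa2, which overlaps Tmco6, at 8.72, 10.7 and 10.0 CPM against 4.8, 6.91 and 6.88 CPM (0.66, edgeR adjusted p = 0.0434). In complex V, Atp5b was at 329, 312 and 306 CPM in KO-LPS, against 251, 246 and 244 CPM in WT-LPS (0.35 ± 0.10, edgeR adjusted p = 0.0168). The gamma subunit Atp5c1 rose by 0.38, so 2 subunits of the catalytic F1 part beside Atp5e were called here.

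Atp5e was at 13.1, 12.6 and 14 CPM in KO-LPS, against 7.38, 9.12 and 9.53 CPM in WT-LPS (0.61 ± 0.15, edgeR adjusted p = 0.00934). Atp5g2 was at 44.1, 39.5 and 40.9 CPM in KO-LPS, against 23.9, 28.6 and 30.2 CPM in WT-LPS (0.59 ± 0.14, edgeR adjusted p = 0.00656). Atp5mpl completed the 5, with 0.54. The lower member was again Atp5s, at 1.73, 1.6 and 1.87 CPM in KO-LPS against 4.95, 4.15 and 5.46 CPM in WT-LPS (-1.48 ± 0.28, edgeR adjusted p = 0.00199). In the order of libraries given here, 7 members were called without the first KO-LPS library, 8 without the first WT-LPS library and 10 without the second WT-LPS library.

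Both with and without LPS, in comparisons that share no library, 9 members were higher in KO: Atp5e, Atp5g2, Atp5mpl, Cox4i1, Cox6a2, Cox7a2, Cox7c, Ndufa6 and Uqcrh. These 9 are 75% of the 12 called without LPS and 45% of the 20 called after LPS, and Cox6a2 among them lies inside the gene Itgad. Of all genes, 8.19% were higher without LPS and 13.4% after LPS, and their overlap was not counted. Both comparisons came from the same fit with a shared estimate of the spread, so they are not fully independent. Sdha, Sdhb, Sdhc and Sdhd had log2 changes of -0.16 to 0.31 between genotypes and none passed the test. The test of the difference itself, genotype by LPS, called 0 of 81 members with edgeR, with 5 at an unadjusted p under 0.05, beside 1.55% of all genes higher and 3.08% lower. DESeq2 and limma each called 1 (Atp5s, -1.32 and -1.37). In edgeR, Atp5s had -1.37 ± 0.38 (adjusted p = 0.0637), and Cox6a2 had 1.08 ± 0.36 (adjusted p = 0.107).

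Cox6a2 (chr7:128205435-128206387, minus strand) had the largest genotype difference of all members. It was at 6.14, 7.58 and 7.4 CPM in KO-PBS, against 1.41, 2.36 and 1.93 CPM in WT-PBS (1.89 ± 0.25, edgeR adjusted p = 0.000552). After LPS it was at 10.8, 8.26 and 5.98 CPM in KO-LPS, against 1.05, 1.12 and 1.02 CPM in WT-LPS (2.97 ± 0.27, edgeR adjusted p = 1.32e-05). The gene lies inside Itgad (chr7:128154376-128223816, plus strand), an integrin alpha chain, which was at 10.8, 16.6 and 13 CPM in KO-PBS against 2.54, 0.74 and 1.66 CPM in WT-PBS (3.03). Itgad was at 19.4, 16.1 and 11.4 CPM in KO-LPS, against 1.95, 1.09 and 0.728 CPM in WT-LPS (3.64). Reads of Cox6a2 and of its host on the other strand cannot be told apart, since the strand setting of the counting is not given in the sources used here.

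No ATAC peak lay within 1000 bp of the Cox6a2 start in the list of any of the 8 groups, that of WT-LPS being uncertain. An H3K27ac peak did in all 6 lists, with a width of 1800 bp and a score of 72 in KO-PBS and of 71 in WT-PBS. The neighbor Itgax, which encodes CD11c, was at 140, 204 and 197 CPM in KO-PBS against 15, 15.2 and 12.4 CPM in WT-PBS (3.67). In all, 28 of the 89 members overlap another protein-coding gene, and so do 8 of the 37 that passed the test in any comparison.

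Members are short genes, and 58 of the 79 tested protein-coding ones lay in the shortest of 5 equal length classes of protein-coding genes in the Ercc1 model. The median log2 change of that length class was 0.0014 in KO-LPS versus WT-LPS and 0.05 in KO-PBS versus WT-PBS. Members called higher had a median length of 1216 bases against 1830 bases for those not past the test in KO-LPS versus WT-LPS, and of 1612 against 1569 bases in KO-PBS versus WT-PBS. The part of length in the genotype result was not tested beyond these values.

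**Figure D4:**
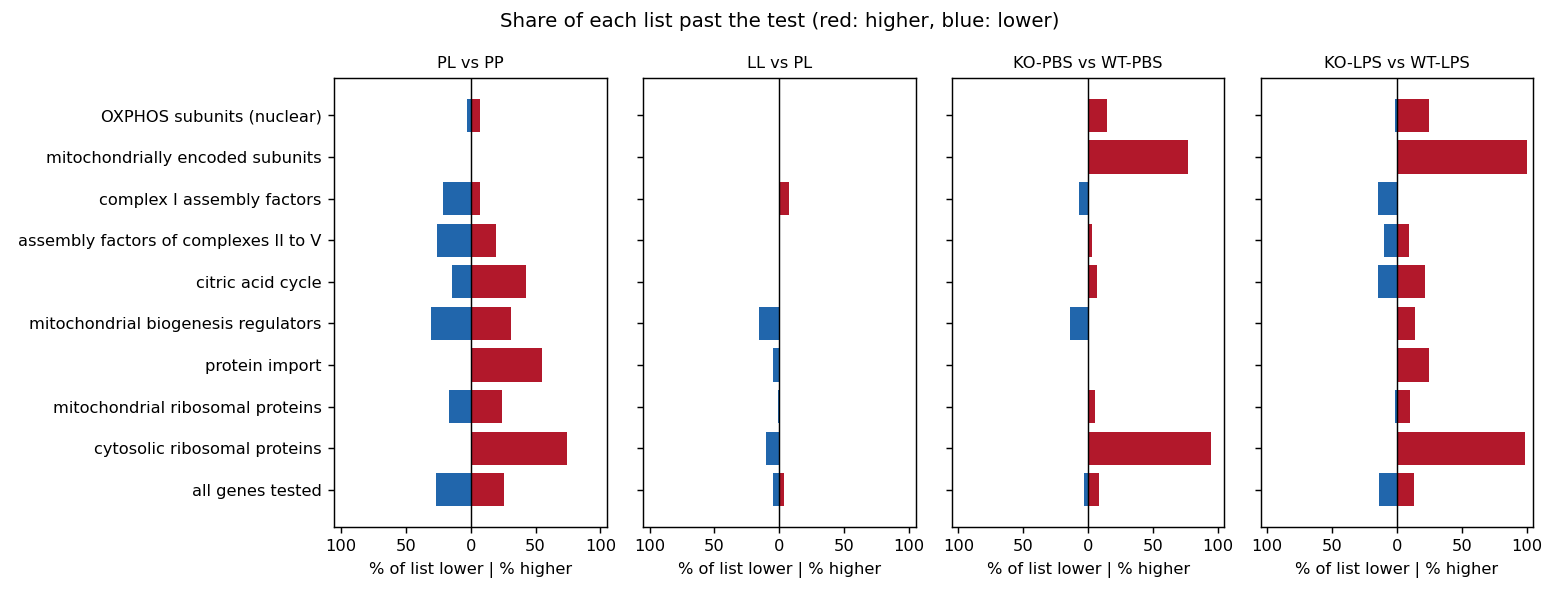
Share of each gene list past the edgeR test (x axis, % of the genes tested in the list; red higher, blue lower) in 4 comparisons. Cytosolic ribosomal protein genes are higher in 57 of 77 cases in PL versus PP and in 76 of 77 in KO-LPS versus WT-LPS, and all 13 mitochondrially encoded subunits are higher in KO-LPS versus WT-LPS.

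The subunits encoded by mitochondrial DNA were higher in KO as well. They summed to 38764 ± 3336 CPM in KO-LPS against 21215 ± 1196 CPM in WT-LPS, and to 27869 ± 3137 CPM in KO-PBS against 18636 ± 2621 CPM in WT-PBS (SD, n = 3 each). With edgeR, 13 of 13 were higher in KO-LPS versus WT-LPS (mt-Co1 1.01, mt-Atp6 0.91), 10 of 13 in KO-PBS versus WT-PBS and 13 of 13 in KO-LPS versus KO-PBS. None passed the edgeR test in WT-LPS versus WT-PBS or in any recurrent LPS comparison, and an unadjusted p under 0.05 was reached by 7 in LP versus PP and by 0 in the others. The sum was 11742, 6594 and 7001 CPM in PL against 6683, 9200 and 6544 CPM in PP.

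Genes that supply or regulate the complexes were also read, beside 26.0% of all genes higher and 26.6% lower in PL versus PP. There, 11 of 20 protein import genes were higher and 0 lower (median 0.44), with Timm8a1 (1.63), the chaperone Hspa9 (1.14), Timm10 (1.10) and Timm23 (0.97) in front. Cycs, the electron carrier cytochrome c, was higher by 1.04. Of 14 complex I assembly factors, 3 were lower (Ndufaf7 -1.51, Tmem126b -0.91, Foxred1 -0.51) and Ndufaf4 was higher (0.71). The assembly factors of complexes II to V had 6 higher and 8 lower of 31, both shares under those of all genes, among them the Cox1 translation activator Taco1 (-1.03).

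Regulators of mitochondrial biogenesis were split, with 4 higher and 4 lower of 13. Pprc1, a coactivator of the PGC-1 family, was higher by 1.95, while Mterf1a (-1.14), Tfb1m (-0.77) and the mitochondrial transcription factor Tfb2m (-0.64) were lower. In the citric acid cycle, 6 of 14 were higher and 2 lower, with Idh3a at 0.57 and the isocitrate dehydrogenases Idh2 and Idh3g at -1.0 and -0.62. Mitochondrial ribosomal proteins had 19 higher and 13 lower of 78, both under the shares of all genes. Cytosolic ribosomal proteins had 57 higher and 0 lower of 77 (median 0.51). Without PP replicate 3 the counts higher and lower were 43 and 0 for cytosolic and 16 and 14 for mitochondrial ribosomal proteins, 9 and 0 for import, 1 and 3 for complex I assembly, 5 and 7 for assembly of complexes II to V, 5 and 3 for the citric acid cycle and 3 and 2 for the regulators.

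Between genotypes, cytosolic ribosomal proteins were higher for 76 of 77 genes in KO-LPS versus WT-LPS (median 0.81) and for 73 of 77 in KO-PBS versus WT-PBS (0.79). Of all genes, 13.4% and 8.19% were higher in these comparisons. In KO-LPS versus WT-LPS, 5 of 20 import genes were higher, and the regulators Ppargc1b (1.66) and Tefm (0.69) were the only 2 of 14 called with edgeR. Idh2 had a log2 change of -1.27. In KO-PBS versus WT-PBS, 2 of 14 regulators were lower, Nrf1 (-0.53) and Yy1 (-0.31), beside 3.37% of all genes. In LL versus PL, 8 of 77 cytosolic ribosomal protein genes and 1 of 20 import genes were lower, beside 4.73% of all genes.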

How the data were processed

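The authors trimmed RNA reads with bbduk, aligned them to GRCm38 with STAR 2.7.3a and counted genes with featureCounts 2.0.0 (versions per the submitters' processing notes). The deposited tables hold expected counts, unscaled and with fractions, and the splitting of shared reads is not given in the sources used here. The authors called ATAC peaks with Genrich 0.5 and histone peaks with SPAN. Per the file headers and values, the deposited peak lists hold a score, a signal and the -log10 of the p-value or q-value.

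Expected counts were rounded (at least 99.99% of each total kept), filtered with filterByExpr, scaled by TMM and tested with edgeR 4.0.16 in R 4.3.3, each model on its own (12 libraries; 16096 and 17460 genes), with Benjamini-Hochberg adjustment over all genes. Standard errors were derived from the F statistic. The code was tested on simulated data. Positions are from GENCODE M21 and promoters from RefSeq, both on GRCm38. Labels name a directional library kit for all RNA libraries, while the methods name another kit for the recurrent LPS model, so strandedness there is uncertain.

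Members and lists were chosen with earlier results of these data known. Values in every library are given for up to 3 members per complex with the largest called change in the acute (PL versus PP), repeat (LL versus PL) and both genotype comparisons, for the isoform sets and the Sdh genes. Up to 4 called genes per other list are named. Further members, Wdr4, Itgad and Itgax were named after their values were seen. Alternatives were DESeq2 1.42.0, RLE scaling, no filter, limma 3.58.1 voomWithQualityWeights with sva 3.50.0 (the tools of the study; 2 surrogate variables in the recurrent LPS model and 3 of the 4 estimated in the Ercc1 model), a replicate block, each library left out, and a promoter window of 2000 bp. H3K4me1 lists were not used here.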

Additional observations from a re-analysis of the deposited data

How the results depend on the processing

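No called change of a named member reversed under any alternative. Of 55 calls, 53 held with DESeq2, 50 with RLE scaling, 49 with limma and surrogate variables, and 32 with no filter on low counts, while 155 of 330 were lost when each library was left out in turn. The number of members past the test moved with limma and surrogate variables to 13 for PL versus PP, 19 for LL versus LP, 1 for LL versus PL, 2 for the second versus first LPS response and 1 for genotype by LPS. With DESeq2 it moved to 1 for genotype by LPS. With no filter it moved to 5 for PL versus PP, 2 for LL versus LP, 1 for LL versus PL, 1 for WT-LPS versus WT-PBS, 2 for KO-LPS versus KO-PBS and 13 for KO-LPS versus WT-LPS. The cause was not tested. Leaving out each library in turn gave 5–12 members for PL versus PP (lowest without PP replicate 1, highest without PP replicate 3), 0 for LP versus PP, 1–9 for LL versus LP (1 without LL replicate 3, 2 without LL replicate 1, 3 without LP replicate 3), 0–1 for LL versus PL (1 without PL replicate 1), 0 for the second versus first response, 0–2 for WT-LPS versus WT-PBS, 1–2 for KO-LPS versus KO-PBS, 4–10 for KO-PBS versus WT-PBS, 7–16 for KO-LPS versus WT-LPS and 0–1 for genotype by LPS (1 without the first WT-PBS library). With the replicate block the counts were 8 for PL versus PP, 0 for LP versus PP, 6 for LL versus LP, 0 for LL versus PL and 0 for the second versus first response, as without it. Same-numbered libraries correlated at -0.41 to 0.41 over 18 pairs, not all over 0.1, and the numbers were not taken to pair the mice. By mean correlation, 7 of 12 libraries were closer to same-numbered than to other-numbered libraries of other groups. No paired analysis was possible for the Ercc1 model because its groups share no replicate numbers. Peak shares with the 2000 bp window stayed within their 95% intervals. With 3 mice per group precision was limited, and in KO-PBS versus WT-PBS Ndufb2, at a few CPM, had a standard error of 0.31 on the log2 scale, against 0.12 for the more abundant Uqcrh.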
